A study of Mus musculus with 20 samples.

Results

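Receptor-type protein tyrosine phosphatases are transmembrane enzymes that remove phosphate from tyrosine, and 10 of them, Ptpro, Ptprz1, Ptprc, Ptprd, Ptprs, Ptprf, Ptprm, Ptprk, Ptprj and Ptpre, were followed here across neural stem cells (NSCs) and 4 progenitor populations of the neonatal mouse subventricular zone. They were found by gene name among 45705 genes of the deposited expression table, and all 10 passed the filter on low values that left 27614 genes for testing. The members were chosen on measured values of these same libraries, so their levels and differences are given as a description and the counts of members called support no statement about the family.

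RNA was sequenced from 20 libraries, 5 sorted populations in each of 4 batches. Periventricular tissue came from Swiss Webster pups at postnatal day 5, with both sexes pooled, no transgene and no treatment. The pups of each litter were pooled, so each library is from pooled pups and not from 1 animal. NSCs were sorted as CD133+ and CD15+ (the LeX carbohydrate) without CD140a or NG2, while the progenitors lacked CD133. BNAP/GRP1 (bipotential neuron astrocyte progenitor together with glial-restricted progenitor 1) was NG2+ CD15+ CD140a-, GRP2/MP3 (glial-restricted progenitor 2 together with multipotential progenitor 3) was NG2+ CD15- CD140a-, GRP3 (glial-restricted progenitor 3) was CD140a+ NG2+ CD15-, and PFMP (PDGF-FGF-responsive multipotential progenitor) was CD140a+ NG2+ CD15+. The 2 gates with double names each hold more than 1 progenitor type. Levels are RPKM (reads scaled to the length of the gene and the size of the library), and differences are on the log2(RPKM + 1) scale. The libraries were made from amplified poly(A) RNA, and how evenly reads covered each gene was not tested. Comparisons of level between genes, including shares of the family, are therefore rough.

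These phosphatases oppose receptor tyrosine kinases at the cell surface, and their extracellular parts bind other cells, matrix or growth factors. In the neonatal brain the family is best known from glial progenitors, where the chondroitin sulfate proteoglycan Ptprz1 binds pleiotrophin and contactin, and from synapses, where the LAR-type members Ptprd, Ptprs and Ptprf organise contacts. Ptprc (CD45) marks blood cells and microglia.

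Catalysis rests on 1 short loop, in which a cysteine takes up the phosphate. The coding bases of this loop (codons for His-Cys-x-x-Gly-x-Gly-Arg and Ser or Thr) are shown for the first phosphatase domain of 4 members that differ in the results below, because this is the stretch that makes them members of 1 enzyme family. They are in the reading direction, from the GENCODE vM21 transcripts on GRCm38, with the cysteine codon in capitals:
Ptpro: cacTGCagtgcgggtgtgggacggaca
Ptprz1: cacTGCagtgctggcgtggggagaacg
Ptprc: cacTGCagtgctggtgttgggcgtaca
Ptpre: cacTGTagcgcgggcgtgggtcggact
Each loop was interrupted by an intron in the genome. The Ptpro loop lay at chr6:137450018-137454603 on the plus strand from exon 24 of 27, the Ptprz1 loop at chr6:23033499-23035063 on the plus strand from exon 21 of 30, the Ptprc loop at chr1:138080252-138080844 on the minus strand from exon 24 of 33, and the Ptpre loop at chr7:135669153-135669740 on the plus strand from exon 11 of 20. The 10 members had 10 distinct sequences here, which shared 21 to 24 of 27 bases with Ptpro.

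The loop was present in 45 of 21562 protein-coding genes (0.209%) and in 10 of 10 members. It was also in all 10 other receptor-type phosphatases with a complete reading frame and in 17 of 17 non-receptor phosphatases. The loop is thus not particular to the members. Its 9 codons encoded the same residues in all members as in Ptpro except Ptprm and Ptprk, which shared 8. The loop occurred again in a second domain in 6 members, Ptprd, Ptprs, Ptprf, Ptprm, Ptprk and Ptpre, and only once in Ptpro, Ptprz1, Ptprc and Ptprj. In the second loop of Ptprm and Ptprk, the homophilic adhesion pair, the bases that follow the cysteine codon were unlike those of the first loop:
Ptprm, second loop: cacTGCttgaacggaggaggccgcagt
Ptprk, second loop: cacTGCttgaatggcggtgggcgcagt
These lie at chr17:66678118-66683378 on the minus strand and chr10:28592041-28592788 on the plus strand. The longest reading frames of the members ran from 719 codons in Ptpre, which has a short extracellular part, to 2312 codons in Ptprz1.

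The libraries of batch 3 stood apart from the rest. Its 5 libraries, from 5 different gates, correlated with each other at Pearson r 0.934 to 0.972 over the tested genes, against 0.697 to 0.897, 0.684 to 0.864 and 0.243 to 0.870 between populations within batches 1, 2 and 4. Summed markers of alveolar macrophages reached 1522 to 1740 RPKM in batch 3 and at most 93.3 elsewhere, lung epithelium 919 to 1043 RPKM against at most 88.5, and erythrocytes 228400 to 252700 RPKM against at most 26510, while summed markers of oligodendrocyte progenitor cells (OPCs) were at 3.12 to 17.7 RPKM with 1 to 5 of 11 markers at 0. Across genes, 5.18% were higher in all 5 batch 3 libraries than in every other library and 6.97% were lower. The labels name 5 different gates, but OPC markers were near 0 also in the GRP3 and PFMP libraries of this batch, so its values are printed beside the others, and values without it are given for the members whose levels it moved most. The library BNAP/GRP1 of batch 4 had a broad low background, with a median of 8.3 RPKM over all genes in the table. In batch 4 this median was also raised in GRP3 (2.02 RPKM), NSC (1.61 RPKM) and GRP2/MP3 (0.977 RPKM), but not in PFMP (0.00791 RPKM). It was at most 0.237 RPKM in the libraries of batches 1 to 3. Values near or below these raised medians are hard to tell from background. Summed RPKM per library ran from 955067 to 2407643, read totals were not in the table, and the depth in reads is unknown.

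Among the 10 members, Ptpro and Ptprj are of the R3 type, with 1 catalytic domain and fibronectin repeats outside the cell. Ptpro was at 1.78, 1.32, 4.23 and 0.954 RPKM in the NSC libraries of batches 1 to 4. In GRP3 it was at 23.7, 19.95, 5.55 and 19.1 RPKM, and in PFMP at 14.5, 10.3, 5.34 and 9.48 RPKM. It was at 7.64, 4.83, 5.50 and 8.35 RPKM in BNAP/GRP1 and at 5.48, 8.75, 4.29 and 6.58 RPKM in GRP2/MP3. All 16 progenitor libraries were thus above all 4 NSC libraries, a pattern that held for 0.0253% of the genes tested (7 genes), and Ptpro was the only member among them. The margins were narrow in places: GRP2/MP3 of batch 3 was at 4.29 RPKM against 4.23 RPKM in NSC of batch 3. BNAP/GRP1 of batch 4, at 8.35 RPKM, lay at that library's median over all genes of 8.3 RPKM. NSC of batch 4, at 0.954 RPKM, lay below the median of its library, 1.61 RPKM.

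Mean Ptpro levels ran in the order GRP3 (17.1 ± 7.95 RPKM, SD, n = 4), PFMP (9.90 ± 3.76), BNAP/GRP1 (6.58 ± 1.68), GRP2/MP3 (6.27 ± 1.898) and NSC (2.07 ± 1.48). Of these neighbours only GRP2/MP3 and NSC did not overlap. Without batch 3 the means were 20.9 ± 2.44 RPKM in GRP3, 11.4 ± 2.70 in PFMP, 6.94 in both BNAP/GRP1 and GRP2/MP3, and 1.35 ± 0.414 in NSC (SD, n = 3), and the ranges of GRP3, PFMP and BNAP/GRP1 no longer overlapped each other. The ratio of means to NSC was 8.25 in GRP3 with all batches and 15.5 without batch 3.

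Within each batch Ptpro was higher than in NSC in 4 of 4 batches in every progenitor. In batch 3 these differences were small, 0.02 to 0.32 on the log2(RPKM + 1) scale, whereas in batches 1, 2 and 4 they ran from 1.22 to 3.37. Fitted over all batches, the difference from NSC was 2.50 in GRP3, 1.86 in PFMP, 1.38 in BNAP/GRP1 and 1.32 in GRP2/MP3 (log2 scale, SE 0.524).

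Ptprj, the other R3 member and a growth-inhibitory phosphatase of many tissues, was also higher than the NSC library of its own batch in 4 of 4 batches in every progenitor. Some margins were small, as in PFMP of batch 1, at 2.07 RPKM against 1.77 RPKM in NSC. The differences of a batch share the same NSC library, and the share of all genes with this pattern was not counted. Its fitted differences were 1.02 in GRP2/MP3, 0.91 in BNAP/GRP1, 0.54 in PFMP and 0.40 in GRP3 on the log2(RPKM + 1) scale (SE 0.915), each about as large as its error or smaller. Its mean ran from 7.58 ± 8.71 RPKM in NSC to 12.4 ± 8.02 RPKM in GRP2/MP3 (SD, n = 4), and all 5 populations overlapped. The 5 libraries of batch 3, at 19.9 to 26.0 RPKM, lay above all 15 others. Without them NSC was at 1.09 to 7.56 RPKM and the highest other library was PFMP of batch 4, at 18.8 RPKM.

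**Figure D1:**
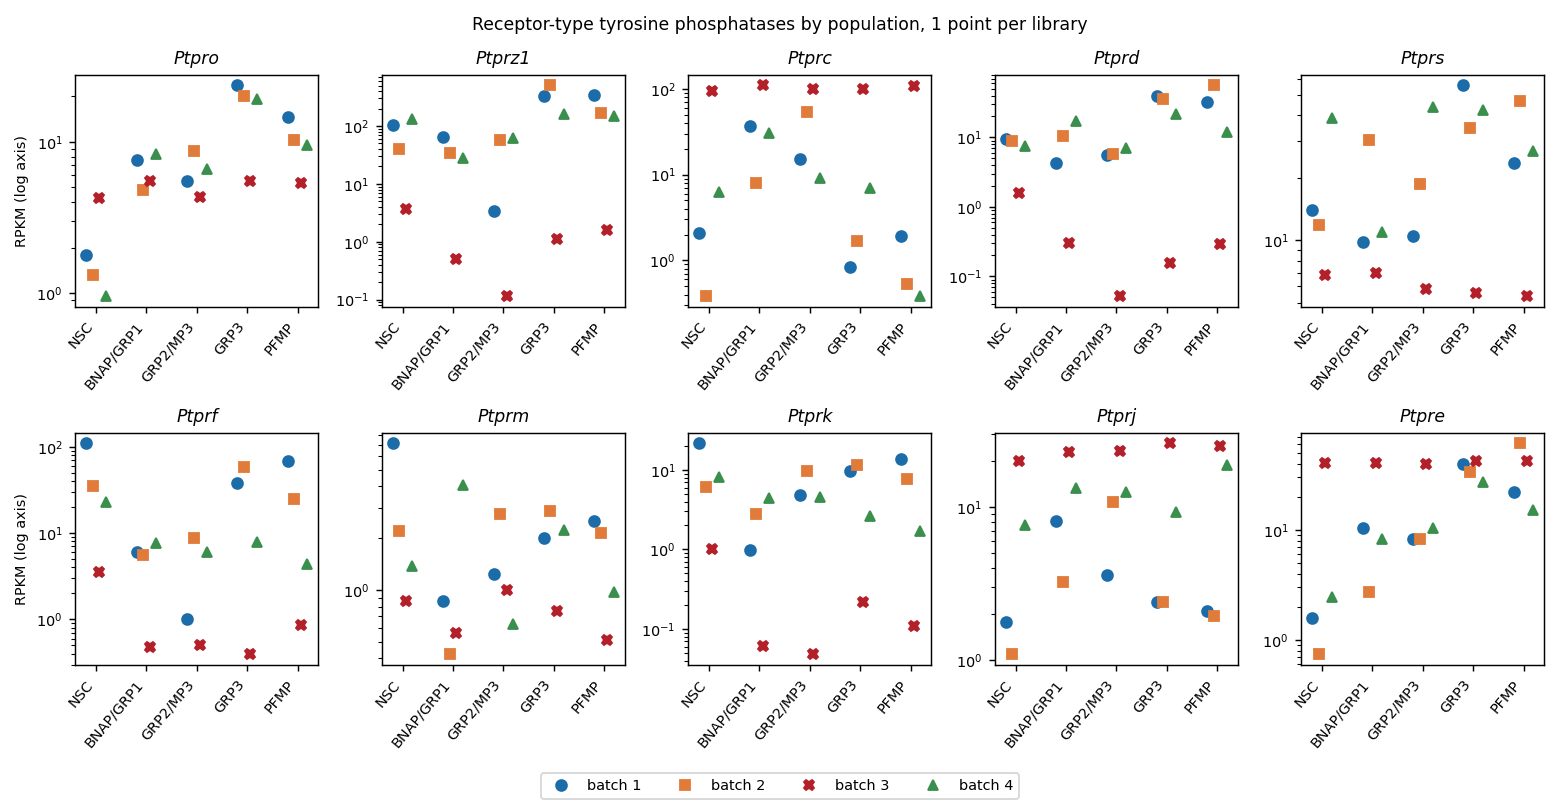
RPKM of each of the 10 phosphatases (log axis) in the 5 sorted populations, 1 panel per gene, with 1 point per library and the batch given by colour and marker. Ptpro is the gene with all 16 progenitor points above all 4 NSC points, and the batch 3 points of Ptprc, Ptprj and Ptpre sit at nearly 1 height in every population.

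Ptpre has a short extracellular part and is made in a membrane-bound and a cytosolic form, which gene-level values do not separate. It was at 1.59, 0.738, 40.7 and 2.48 RPKM in NSC. In GRP3 it was at 39.8, 33.7, 42.3 and 27.3 RPKM, and in PFMP at 22.1, 61.4, 42.3 and 15.03 RPKM. BNAP/GRP1 had 10.4, 2.76, 40.8 and 8.22 RPKM and GRP2/MP3 had 8.22, 8.22, 40.0 and 10.5 RPKM. In batches 1, 2 and 4 every progenitor library was above every NSC library, and GRP3 and PFMP lay above both other progenitors, whereas in batch 3 all 5 populations were within 1.06-fold of each other. The value of 8.22 RPKM in BNAP/GRP1 of batch 4 lay at that library's median over all genes of 8.3 RPKM.

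The mean of Ptpre in NSC was 11.4 ± 19.5 RPKM (SD, n = 4) with batch 3 and 1.60 ± 0.872 RPKM (SD, n = 3) without it. In GRP3 the corresponding means were 35.8 ± 6.70 and 33.6 ± 6.25 RPKM, and in PFMP 35.2 ± 20.9 and 32.8 ± 25.0 RPKM. The ratio of the GRP3 mean to the NSC mean was 3.15 with batch 3 and 21.0 without it, with 40.7 RPKM in the NSC library of batch 3 against at most 2.48 RPKM in the other NSC libraries. On the log2(RPKM + 1) scale the difference from NSC was 2.84 in GRP3, 2.65 in PFMP, 1.49 in GRP2/MP3 and 1.16 in BNAP/GRP1 (SE 0.864).

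Over the 20 libraries Ptpro and Ptpre correlated at Pearson r 0.621, and at 0.898 over the 15 libraries outside batch 3. Both moved with markers of OPCs, whose sum outside batch 3 was 919 to 3790 RPKM in GRP3 and 461 to 2942 RPKM in PFMP against 48.4 to 55.8 RPKM in NSC, 60.6 to 179 RPKM in BNAP/GRP1 and 24.6 to 235 RPKM in GRP2/MP3. All 11 markers reached 1 RPKM in these GRP3 and PFMP libraries, and also in the batch 4 libraries of NSC, BNAP/GRP1 and GRP2/MP3. Those batch 4 libraries had raised medians over all genes. Among these markers, Pdgfra and Cspg4 encode the sorted antigens CD140a and NG2. The correlation of Ptpro with the marker sum was 0.701 over 20 libraries and 0.798 without batch 3, and that of Ptpre 0.144 and 0.871. This was not particular to them, with Ptprd at 0.919 and 0.904, Ptprz1 at 0.888 and 0.794, and Ptprs at 0.817 and 0.652. Values were lower for Ptprf (0.685 and 0.416), Ptprk (0.640 and 0.210) and Ptprm (0.428 and 0.139). Ptprc (-0.758 and -0.505) and Ptprj (-0.567 and -0.165) ran against the sum. Ptpro and Ptpre also ran against markers of ependymal cells, the ciliated lining of the ventricle. Outside batch 3 the sum of these markers was 3210 to 14940 RPKM in NSC and at most 543 RPKM in the progenitors. In batch 3 it was 1293 RPKM in NSC. With this sum Ptpro correlated at r -0.676 over 20 libraries and -0.824 without batch 3, and Ptpre at -0.674 and -0.741. Summed markers of endothelial cells ran against both too, at -0.506 and -0.670 for Ptpro and -0.789 and -0.740 for Ptpre. The libraries share batches and gates, and the part of these cells in the results, all taken as differences from NSC, was not tested. In bulk RNA, fewer cells of a type and less RNA per cell cannot be told apart.

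Ptprz1, the chondroitin sulfate proteoglycan that serves as a receptor for pleiotrophin, had the highest RPKM of the family in the GRP3 and PFMP libraries of batches 1, 2 and 4. It was at 105, 39.9, 3.65 and 134 RPKM in NSC. In GRP3 it was at 333, 509, 1.10 and 164 RPKM, and in PFMP at 337, 169, 1.62 and 151 RPKM. BNAP/GRP1 had 64.8, 34.6, 0.510 and 27.8 RPKM and GRP2/MP3 had 3.395, 56.5, 0.115 and 61.7 RPKM. Outside batch 3 the lowest GRP3 or PFMP library, at 151 RPKM, was above the highest NSC library, at 134 RPKM, while BNAP/GRP1 and GRP2/MP3 overlapped NSC.

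The mean of Ptprz1 was 252 ± 219 RPKM in GRP3, 165 ± 137 in PFMP, 70.6 ± 59.6 in NSC, 31.9 ± 26.4 in BNAP/GRP1 and 30.4 ± 33.2 in GRP2/MP3 (SD, n = 4), and with all batches no neighbours in this order were apart. The ratio of the GRP3 mean to the NSC mean was 3.57 with batch 3 and 3.61 without it. On the log2(RPKM + 1) scale the differences from NSC were 1.11 in GRP3, 0.77 in PFMP, -1.18 in BNAP/GRP1 and -1.82 in GRP2/MP3 (SE 1.81), so all 4 were about as large as their error or smaller. Leaving out 1 library at a time moved them widely, from 0.07 to 2.90 in GRP3, -0.27 to 2.34 in PFMP, -2.23 to 0.00 in BNAP/GRP1 and -2.86 to -0.69 in GRP2/MP3. In each range both ends came from batch 3 libraries.

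Among the 21 receptor-type phosphatases of the table, Ptprz1 held 32.2% to 60.0% of the summed RPKM in the GRP3 and PFMP libraries of batches 1, 2 and 4. In all 5 libraries of batch 3 the first place was held by Ptprc, with 39.8% to 48.4%, and the second by Ptpre, with 17.2% to 19.2%. The first gene in NSC differed between batches, with Ptprf at 27.5% in batch 1, Ptpru at 30.5% in batch 2 and Ptprz1 at 41.3% in batch 4. The 10 members together held from 32.6% of the family's RPKM in BNAP/GRP1 of batch 4 to 83.7% in GRP3 of batch 2.

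**Figure D2:**
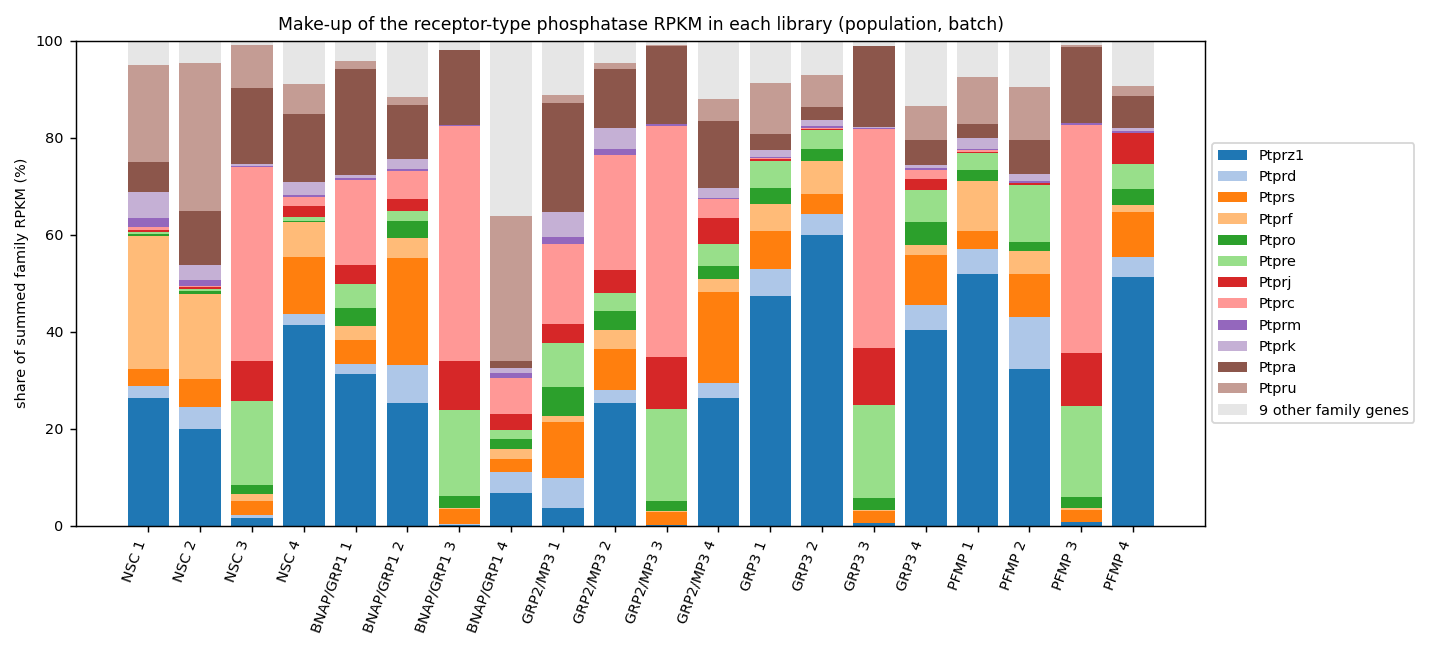
Share of the summed RPKM of 21 receptor-type phosphatases (percent, stacked bars from 0 to 100) taken by each member and by the other family genes, in each of the 20 libraries. Ptprz1 is the widest band in GRP3 and PFMP outside batch 3, at 32.2% to 60.0%, and Ptprc in all batch 3 libraries, at 39.8% to 48.4%.

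The LAR-type members Ptprd, Ptprs and Ptprf carry immunoglobulin and fibronectin domains and bind heparan sulfate proteoglycans and postsynaptic adhesion proteins. Ptprd was at 9.53, 8.87, 1.57 and 7.60 RPKM in NSC. It was at 39.4, 35.8, 0.158 and 21.4 RPKM in GRP3 and at 32.8, 56.6, 0.296 and 12.2 RPKM in PFMP. BNAP/GRP1 had 4.29, 10.6, 0.300 and 17.5 RPKM and GRP2/MP3 had 5.59, 5.72, 0.0517 and 7.11 RPKM. Outside batch 3 all 6 CD140a+ libraries were above all 3 NSC libraries, and all 3 GRP2/MP3 libraries were below them, with 7.11 RPKM against 7.60 RPKM at the narrowest point. In batch 3 the order of GRP3 and NSC was the opposite, and all 5 libraries of that batch were below all 15 others.

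Mean Ptprd was 24.2 ± 17.8 RPKM in GRP3, 25.4 ± 24.7 in PFMP, 8.17 ± 7.51 in BNAP/GRP1, 6.89 ± 3.64 in NSC and 4.62 ± 3.12 in GRP2/MP3 (SD, n = 4). Without batch 3 the means of GRP3 and NSC were 32.2 ± 9.51 and 8.66 ± 0.983 RPKM (SD, n = 3), a ratio of 3.72. The fitted difference over all batches was 1.02 in GRP3 and 0.96 in PFMP on the log2(RPKM + 1) scale (SE 1.20). Ptprd and Ptprz1 correlated at r 0.907 over 20 libraries and 0.684 after the mean of each batch was taken out.

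Ptprf, the founding LAR member, had its highest mean in NSC. It was at 110, 34.8, 3.54 and 22.8 RPKM in NSC. In BNAP/GRP1 it was at 6.03, 5.56, 0.475 and 7.72 RPKM, and in GRP2/MP3 at 1.02, 8.70, 0.504 and 6.09 RPKM. GRP3 had 38.1, 58.4, 0.394 and 7.93 RPKM and PFMP had 67.6, 24.5, 0.853 and 4.42 RPKM. Within batches Ptprf was below NSC in 4 of 4 batches in BNAP/GRP1, GRP2/MP3 and PFMP and in 3 of 4 in GRP3.

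The mean of Ptprf was 42.7 ± 46.5 RPKM in NSC, 26.2 ± 26.96 in GRP3, 24.3 ± 30.6 in PFMP, 4.95 ± 3.12 in BNAP/GRP1 and 4.08 ± 3.98 in GRP2/MP3 (SD, n = 4). Outside batch 3 the 3 libraries of BNAP/GRP1 and the 3 of GRP2/MP3 were below the 3 of NSC, while GRP3 and PFMP overlapped them. The ratio to the NSC mean was 0.116 in BNAP/GRP1 and 0.0955 in GRP2/MP3, and 0.115 and 0.0945 without batch 3. On the log2(RPKM + 1) scale the differences were -2.37 and -2.75, against -0.97 in GRP3 and -1.15 in PFMP (SE 1.22).

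Ptprs, a receptor for chondroitin and heparan sulfate chains, was found in every population. Its mean ran from 14.5 ± 10.6 RPKM in BNAP/GRP1 to 34.6 ± 21.2 RPKM in GRP3 (SD, n = 4), all populations overlapped, and the largest difference from NSC was 0.82 in GRP3 on the log2(RPKM + 1) scale (SE 0.786), and 1.17 without batch 3. The 5 libraries of batch 3 were at 5.38 to 6.96 RPKM, below all 15 others.

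Ptprk and Ptprm bind their own kind on neighbouring cells. Ptprk had its highest mean in NSC, where it was at 21.6, 6.10, 1.01 and 8.23 RPKM, with means of 9.24 ± 8.80 RPKM in NSC and 2.08 ± 1.96 RPKM in BNAP/GRP1 (SD, n = 4). BNAP/GRP1 was below NSC in 4 of 4 batches, by 1.52 on the log2(RPKM + 1) scale in the fit (SE 0.971) and 1.725 without batch 3, and did not overlap NSC outside batch 3. Ptprm was low in every population, with means of 1.41 to 2.90 RPKM, and the highest library was NSC of batch 1 at 7.13 RPKM. Its differences from NSC, -0.20 to -0.61, were about as large as their error (SE 0.591) or smaller, and lay between -0.24 and -0.73 without batch 3.

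Ptprc, the leukocyte phosphatase CD45, was at 2.08, 0.387, 94.1 and 6.22 RPKM in NSC. In BNAP/GRP1 it was at 36.4, 8.08, 110 and 30.1 RPKM, and in GRP2/MP3 at 15.1, 53.0, 101 and 9.22 RPKM. GRP3 had 0.837, 1.67, 99.5 and 7.00 RPKM and PFMP had 1.93, 0.538, 106 and 0.383 RPKM. Outside batch 3 the 6 libraries of BNAP/GRP1 and GRP2/MP3 were above all NSC, GRP3 and PFMP libraries, while batch 3 was above all 15 other libraries in every population.

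The mean of Ptprc in NSC was 25.7 ± 45.7 RPKM (SD, n = 4) with batch 3 and 2.90 ± 3.00 RPKM (SD, n = 3) without it. In BNAP/GRP1 the corresponding means were 46.2 ± 44.4 and 24.9 ± 14.9 RPKM, and in GRP2/MP3 44.4 ± 42.1 and 25.8 ± 23.8 RPKM. The ratio to NSC in GRP2/MP3 was therefore 1.73 with batch 3 and 8.89 without it. On the log2(RPKM + 1) scale the differences were 2.16 in BNAP/GRP1 and 2.06 in GRP2/MP3 (SE 1.46).

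Markers of microglia moved with Ptprc. Outside batch 3 the sum of 13 microglia markers was 189 to 9245 RPKM in BNAP/GRP1 and 858 to 8733 RPKM in GRP2/MP3, against 38.4 to 94.8 RPKM in NSC, 25.9 to 43.4 in GRP3 and 19.0 to 149 in PFMP, and no marker was at 0 in any library. All 13 reached 1 RPKM in each of these BNAP/GRP1 and GRP2/MP3 libraries. They also did so in NSC and GRP3 of batch 4, whose medians over all genes were raised. BNAP/GRP1 of batch 4, with the lowest of these sums at 189 RPKM, had a median over all genes of 8.3 RPKM. All 8 lung epithelium and all 8 ependymal markers also reached 1 RPKM there, so its microglia markers are hard to tell from this background. In batch 3 the sum was 2706 to 3041 RPKM, but the microglial genes P2ry12, Tmem119 and Fcrls were at 0.915 to 1.49, 0.687 to 1.10 and 1.21 to 2.46 RPKM there, while 8 of 8 alveolar macrophage markers were at 1 RPKM or more. Over the 20 libraries Ptprc correlated at r 0.816 with the microglia sum and 0.953 with the alveolar macrophage sum, and at 0.767 and 0.911 without batch 3. Summed markers of lymphocytes and neutrophils were at 524 to 564 RPKM in batch 3 and at most 101 RPKM elsewhere. Their correlation with Ptprc was 0.924 over the 20 libraries and 0.826 without batch 3. The part of these cells in the Ptprc values was not tested.

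**Figure D3:**
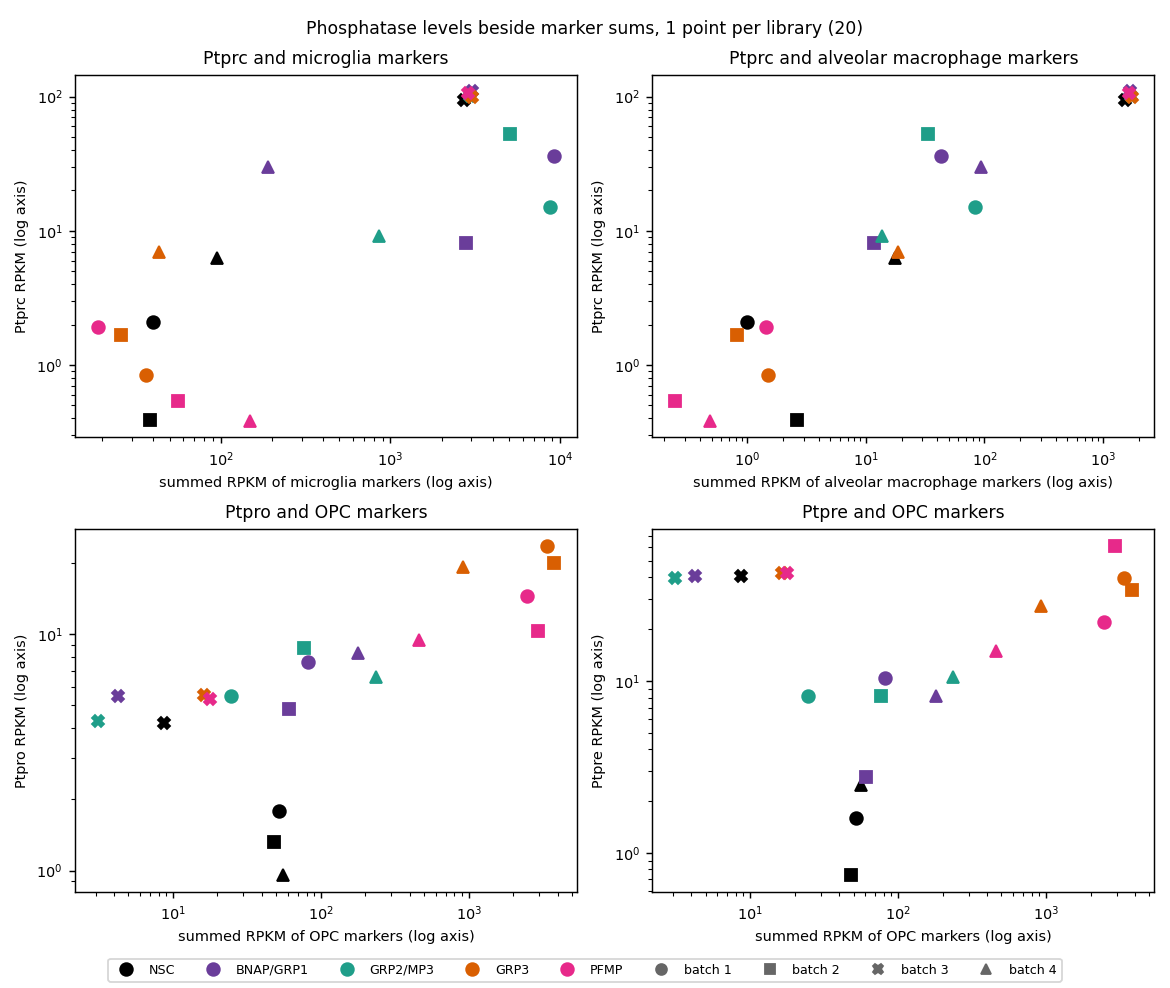
Levels of Ptprc against the summed RPKM of microglia and of alveolar macrophage markers, and of Ptpro and Ptpre against summed OPC markers (log axes), with 1 point per library coloured by population and batch 3 set apart by its marker. Batch 3 sits at the upper end for alveolar macrophage markers (1522 to 1740 RPKM) and at the lower end for OPC markers (3.12 to 17.7 RPKM).

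The number of members whose ranges did not overlap NSC outside batch 3 is given as a description. In both GRP3 and PFMP, 4 of 10 members (Ptpro, Ptprz1, Ptprd and Ptpre) had all 3 libraries above all 3 NSC libraries and 0 had all below, where 8.81% and 4.58% of the genes tested were above and 7.18% and 11% below. In BNAP/GRP1, 3 members (Ptpro, Ptprc and Ptpre) were above and 2 (Ptprf and Ptprk) below, against 4.96% and 4.62% of genes. In GRP2/MP3 the same 3 were above and 2 (Ptprd and Ptprf) below, against 3.75% and 8.81%. Since the members were chosen on these values, nothing is read from the counts.

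**Figure D4:**
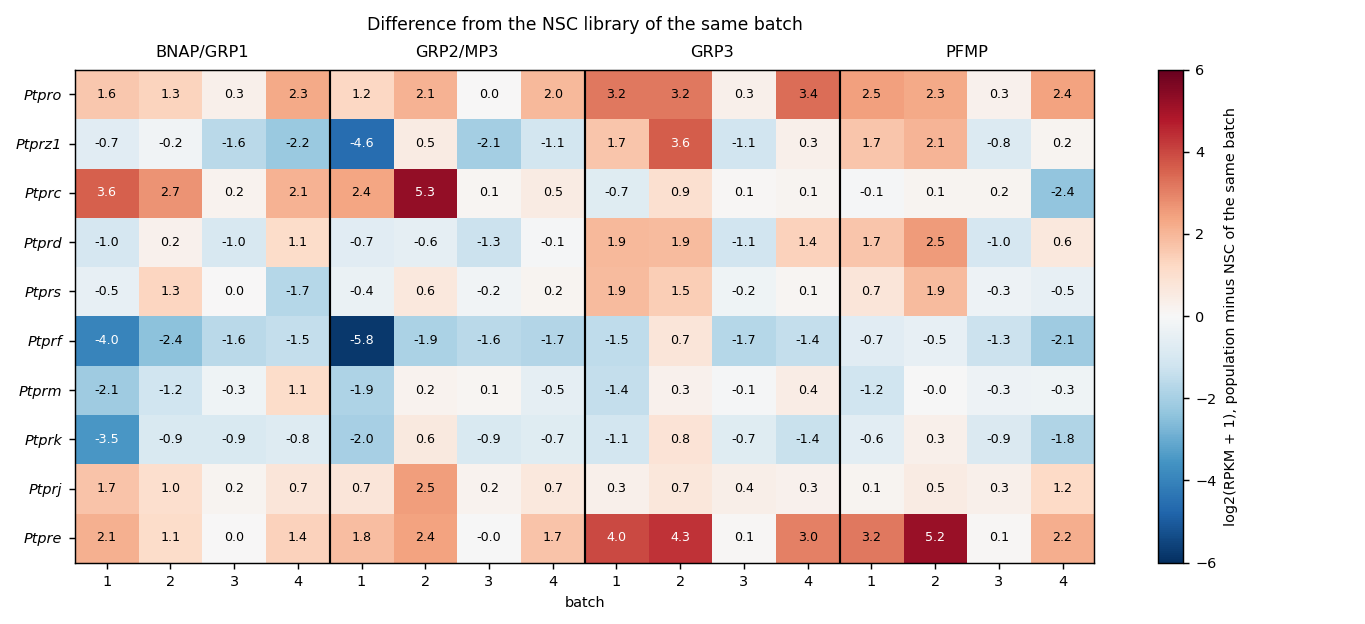
Difference of each progenitor library from the NSC library of the same batch, on the log2(RPKM + 1) scale, as a colour for the 10 members (rows) in each progenitor and batch (columns). Ptpro and Ptprj are higher in all 16 cells of their rows, and the batch 3 columns of Ptpro are near 0 (0.02 to 0.32). Cells of a batch share the same NSC library.

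In the limma fit over all 20 libraries, with Benjamini-Hochberg adjustment over all genes tested and a call at an adjusted p under 0.05, 1 of the 40 member and progenitor combinations was called, Ptpro in GRP3. The background of genes called higher was 0% (BNAP/GRP1), 0% (GRP2/MP3), 0.0109% (GRP3) and 0.00362% (PFMP), and that of genes called lower was 0.76%, 1.12%, 1.04% and 1.14% in the same order. With the batch as a replicate block 5 combinations were called, Ptpro and Ptpre higher in GRP3 and in PFMP, and Ptprf lower in GRP2/MP3. The background with the block was 0.0652%, 0.174%, 0.275% and 0.185% higher and 2.02%, 2.91%, 2.33% and 2.61% lower, in the same order of progenitors. Without batch 3 the calls were 4, Ptpro and Ptpre in GRP3 and PFMP, with fitted differences of 3.23 and 2.39 for Ptpro and 3.77 and 3.51 for Ptpre. The background of genes called higher in that fit was 0.356% in GRP3 and 0.233% in PFMP, and nothing is read from any of these counts. The call of Ptpro in GRP3 was lost without NSC of batch 1, 2 or 4, or without GRP3 of batch 1 or 2 (adjusted p 0.0511 to 0.0905), and also in a fit with only NSC and GRP3 (adjusted p = 0.130).

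**Figure D5:**
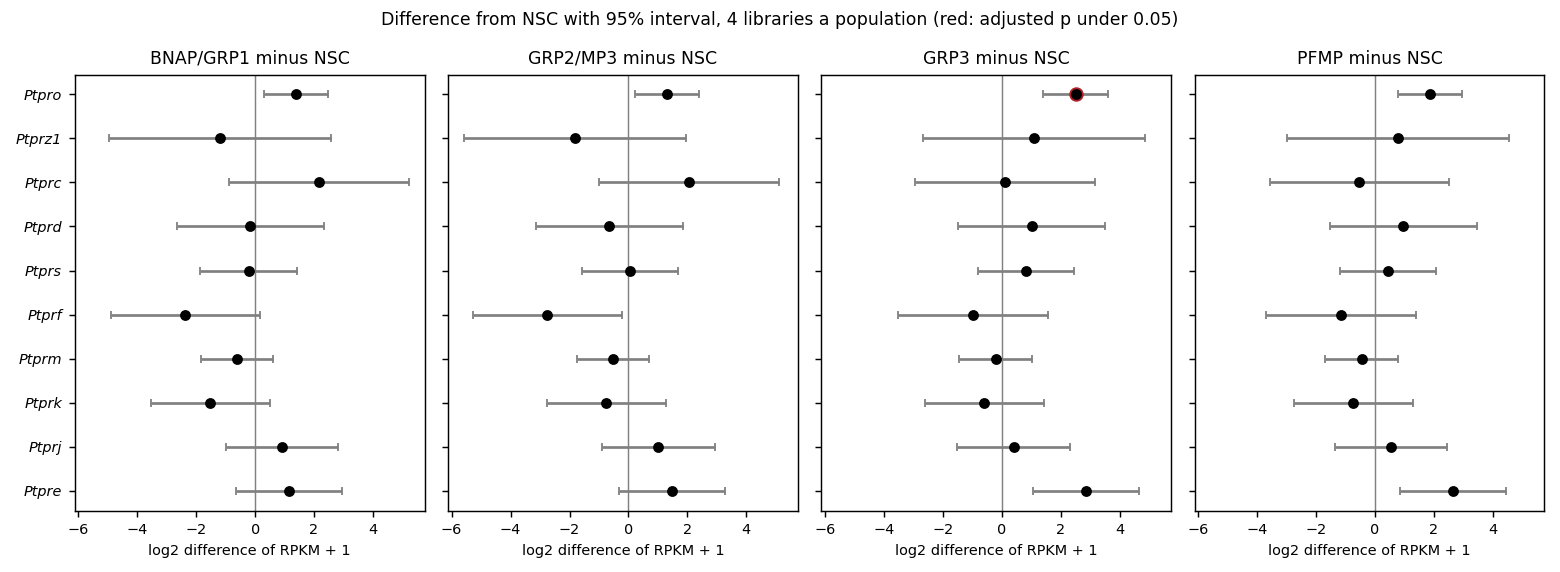
Fitted difference of each progenitor from NSC for the 10 members on the log2(RPKM + 1) scale, with the 95% interval of the limma fit as a bar and the called combination ringed in red. Ptpro in GRP3 (2.50) is the only combination called, and the intervals of Ptprz1 are among the widest (SE 1.81).

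Between progenitors, the members were compared in 6 direct contrasts that leave the NSC libraries out of the difference. Of 60 combinations limma called 0 at an adjusted p under 0.05, with and without the replicate block and also without batch 3, and with all batches 0% of all genes were called in each of the 6 contrasts. At an unadjusted p under 0.05 there were 2, both of Ptpro, which was higher in GRP3 than in BNAP/GRP1 by 1.12 (95% interval 0.03 to 2.21) and than in GRP2/MP3 by 1.19 (0.10 to 2.28) on the log2(RPKM + 1) scale. With the block there were 17. Over all genes and the 6 contrasts, 1.94% of the tests were under this threshold without the block and 7.8% with it. For Ptpro the difference of PFMP from GRP3 was -0.64 with an interval of -1.73 to 0.45, which leaves room for both a lower and a slightly higher level in PFMP.

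The 11 other receptor-type phosphatases, of which 9 were tested, gave 0 calls in 4 progenitors, also with the block. At an unadjusted p under 0.05 there was 1, Ptpru in GRP2/MP3, an adhesion-type relative of Ptprk and Ptprm, at -3.45 on the log2(RPKM + 1) scale (SE 1.43, adjusted p = 0.600 by limma). Ptpru was at 79.8, 60.9, 20.5 and 20.1 RPKM in NSC and at 1.43, 2.64, 0.537 and 10.7 RPKM in GRP2/MP3, without overlap. Ptpra, the closest relative of Ptpre, differed by -0.64 in BNAP/GRP1 (SE 0.555, adjusted p = 0.866) and stayed between 5.52 and 45.7 RPKM over the 20 libraries.

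The 17 non-receptor phosphatases, which lack a membrane-spanning part, also gave 0 calls in the limma fit, with 1 combination at an unadjusted p under 0.05 in each progenitor, and 0 calls with the block. Ptpn9 in GRP3 differed by 1.56 (SE 0.550, adjusted p = 0.387), and Ptpn18 in BNAP/GRP1 by 3.00 (SE 1.10, adjusted p = 0.514). Without batch 3 and with the block 2 were called, Ptpn18 in BNAP/GRP1 and Ptpn6 in GRP2/MP3, a phosphatase of blood cells, which was at 148 to 173 RPKM in batch 3. In that fit 0.308% of all genes were called higher in BNAP/GRP1 and 0.585% in GRP2/MP3. The median difference over each list lay within the range -0.28 to 0.61 in every progenitor, and the all-gene median was 0.38 and -0.08 in the CD140a- progenitors, BNAP/GRP1 and GRP2/MP3, and 0.05 and -0.20 in GRP3 and PFMP.

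Ligands, scaffolds and substrates of the family were followed as a list of 53 genes, 51 of them tested. Without the block limma called 0. An unadjusted p under 0.05 was reached by 1 higher and 1 lower gene in BNAP/GRP1, by 2 and 1 in GRP2/MP3, by 7 and 2 in GRP3, and by 2 and 1 for PFMP. Over all genes the shares at that threshold were 1.87% higher and 4.03% lower for BNAP/GRP1, 0.873% and 4.92% for GRP2/MP3, 1.26% and 4.36% for GRP3, and 0.793% and 5.08% for PFMP. With the block 7 combinations were called, where 0.0652% to 0.275% of all genes were called higher and 2.02% to 2.91% lower. Gpc4, a heparan sulfate proteoglycan that binds LAR-type receptors, was called lower in all 4 progenitors by 2.37 to 2.98 on the log2(RPKM + 1) scale (SE 0.476, adjusted p 0.000744 to 0.00778 with the block and 0.0514 to 0.257 without).

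Gpc4 was at 30.1, 15.5, 6.29 and 24.7 RPKM in NSC. In PFMP it was at 3.79, 0.803, 0.119 and 1.54 RPKM, and in GRP3 at 2.48, 3.26, 0 and 1.80 RPKM. All 16 progenitor libraries were below the NSC library sorted in the same batch, and the highest of the 16 progenitor libraries was at 7.06 RPKM, in BNAP/GRP1 of batch 2.

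The other calls with the block were ligands of Ptprz1. Cntn1, the contactin that binds its extracellular part, was at 137, 228, 0.602 and 241 RPKM in GRP3 and at 6.36, 1.57, 0.323 and 7.95 RPKM in NSC, a difference of 3.94 (SE 0.898, limma adjusted p = 0.0189 with the block and 0.646 without). In PFMP it was at 533, 102, 0.744 and 102 RPKM, a difference of 3.86. Tnr, the matrix protein tenascin-R, was at 13.3, 12.2, 0.0024 and 19.0 RPKM in GRP3 and at 0.671, 0.768, 0.00288 and 1.63 RPKM in NSC, a difference of 2.23 (adjusted p = 0.0477 with the block and 0.630 without). Il34, which also binds Ptprz1, differed by 2.10 in GRP2/MP3 (SE 0.791, adjusted p = 0.434) and did not pass. In batch 3 Cntn1 and Tnr were below 1 RPKM in GRP3 and PFMP, as Ptprz1 was below 2 RPKM.

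The genes whose pattern over the 20 libraries was most like that of 9 members, by Pearson r of log2(RPKM + 1), are given as a description, since the libraries share batches and gates. Without batch 3 the r of the genes named here lay between 0.812 (Amn1) and 0.963 (Nuak2). For Ptpro they were Pik3r1 (r 0.914), a regulatory subunit of phosphatidylinositol 3-kinase, Scamp5 (0.906) and Itpr2 (0.884). For Ptpre they were Sdc3 (0.930), a heparan sulfate proteoglycan, Myo5a (0.904) and the gene ENSMUSG00000036469 (0.903). For Ptprz1 they were Ppp2r2b (0.987), Arxes2 (0.982) and Pou3f3 (0.982), and for Ptprd Dlgap1 (0.971), Tril (0.971) and Cspg5 (0.970).

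For Ptprf the genes most like it were Gldc (0.969), the glycine decarboxylase, Zcchc18 (0.958) and Nudt11 (0.956). For Ptprc they were Nuak2 (0.980), Rgs1 (0.980) and A630033H20Rik (0.977). Those of Ptprk were Lrp8 (0.945), Amy1 (0.940) and Amn1 (0.931), those of Ptprs Gnl3l (0.941), Brd3 (0.930) and Grtp1 (0.924), and those of Ptprm Cep76 (0.908), Tbc1d31 (0.901) and Gm6335 (0.889). Among the members the closest pair over 20 libraries was Ptprz1 with Ptprd (r 0.907), and the next was Ptprf with Ptprk (0.893). Ptprc with Ptprj was at 0.785, below several other pairs. Ptprc ran most strongly against Ptprd (-0.845) and then against Ptprz1 (-0.826). Without batch 3 these were 0.666, 0.779, 0.539, -0.598 and -0.540.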

How the data were processed

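Fluorescence-sorted populations were profiled by amplified poly(A) RNA sequencing. The submitters' processing notes name FastQC 0.11.9, cutadapt 3.4, STAR 2.6.1, Salmon 1.9.0 and DESeq2 1.26.0 on GRCm38. The authors deposited RPKM per gene and library; how these were derived, the gene lengths and the annotation release are not given in the sources used here, and 26 columns without a name were not used. RPKM are not counts, so no count model was fitted and no counting interval can be given. Low values stand in whole-number ratios between libraries, with the commonest ratio to BNAP/GRP1 of batch 1 from 0.0197 to 1.41, a rough guide to relative depth. The lowest ratio was that of BNAP/GRP1 of batch 4, the library with the highest median over all genes. The next was GRP3 of batch 4, at 0.0688.

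Values were taken as log2(RPKM + 1). The 27614 genes that reached 1 RPKM in 4 or more of the 20 libraries were fitted in limma 3.58.1 (R 4.3.3) with 1 mean per population and a trended prior, and p-values were adjusted by Benjamini-Hochberg over all of them. The fit was tested on simulated data. Ratios of means used RPKM; tables and figures were made in Python 3.11.15 with pandas 2.3.3, numpy 2.4.6 and matplotlib 3.10.9.

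Groups came from the sample titles, which give population and batch. The labels name the batch, so equal numbers mark libraries of 1 batch, and the median correlation of deviations from the population mean was 0.337, 0.262, 0.769 and 0.581 within batches 1 to 4 (lowest 0.0341) and -0.254 between batches. Alternatives were a replicate block, pseudocount 0.1, no filter, a mean of at least 5 RPKM, median-of-ratios scaling on 12888 genes, quantile normalization, an untrended prior, a model of just the populations compared, each library left out, and batch 3 left out.

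The members and gene lists were chosen with earlier results of these data known. Genes outside the members were named where they had the smallest adjusted p in their list (2 per list where none was called) or as the 3 highest correlations with a member. Those for Ptprj are not reported here. Gpc4 in other progenitors, Cntn1, Tnr and Ptpn6 were named after their values were seen.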

Additional observations from a re-analysis of the deposited data

Results flagged for a closer look

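Within each population, the lowest and the highest of the 4 libraries were compared with the rest by Dixon's ratio on log2(RPKM + 1), for 10 members in 5 populations. Of 50 groups 7 had a library beyond the 95% critical value for 4 samples, where chance flags about 1 in 20 groups, and in 7 of the 7 that library was from batch 3. Ptpro in GRP3 was low, at 5.55 RPKM (ratio 0.846). Ptprz1 in PFMP was low, at 1.62 RPKM (0.835). Ptprd was low in NSC at 1.57 RPKM (0.856), in GRP2/MP3 at 0.0517 RPKM (0.898) and in GRP3 at 0.158 RPKM (0.835). Ptprf in BNAP/GRP1 was low, at 0.475 RPKM (0.840). Ptpre in GRP2/MP3 was high, at 40.0 RPKM (0.850). The flags are not independent, since the same 5 libraries give all of them.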

How the results depend on the processing

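The number of member and progenitor combinations called against NSC was 1, and it was 5 with the replicate block, 0 with only the compared populations in the model, 4 with batch 3 left out and 4 with batch 3 left out and the block. Leaving out 1 library at a time gave 0 to 4, with 4 without NSC of batch 3. It stayed at 1 under the other pseudocount, filters, scalings and prior. The calls of the other receptor-type phosphatases stayed at 0 in all 30 alternatives, as did the members' calls between progenitors. Non-receptor phosphatases went from 0 to 2 with batch 3 left out and the block, and stayed at 0 otherwise. Partner calls went from 0 to 1 with the stricter filter, 2 with median-of-ratios scaling, 2 with quantile normalization, 7 with the block, 1 with the prior without a trend, 7 with batch 3 left out and 12 with batch 3 left out and the block, and to 0 to 3 with 1 library left out. Over all genes, the shares called in the 4 progenitors were 0% to 0.0109% higher and 0.76% to 1.14% lower over all 20 libraries. With the block they were 0.0652% to 0.275% and 2.02% to 2.91%. With batch 3 left out they were 0.143% to 0.356% and 1.09% to 1.64%. With batch 3 left out and the block they were 0.308% to 0.604% and 1.59% to 2.37%. With all batches kept, the replicate block changed no call of the other receptor-type or non-receptor lists. The cause of these shifts was not tested.

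Of 40 member differences 27 kept their sign in all alternatives and 13 did not, each of these by leaving libraries out and not by scaling. Ptpro in GRP3 ranged from 2.30 to 3.23 on the log2 scale (limma adjusted p 0.00255 to 0.130). The median over all genes in BNAP/GRP1 moved from 0.378 to 0.261 with median-of-ratios scaling and 0.0882 with quantile normalization, and in PFMP from -0.205 to 0.0685 with quantile normalization. With 4 pooled libraries a group and read totals unknown, depth in reads could not be set beside single values.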
